A study of Mus musculus with 11 samples.

Results

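The 9 genes described here belong to the junctions that hold the blastomeres together, and were measured in single 8-cell mouse embryos with and without *Prdm10*. They are *Cdh1*, *Ctnnb1* and *Ctnna1* of the adherens junction, and *Tjp1*, *Cldn4*, *Cldn6*, *Cldn7*, *Ocln* and *F11r* of the tight junction. The genes were chosen by symbol, for their roles, and all 9 were found among the 54146 gene rows of each embryo's table. The embryos were of the C57BL/6 strain and were collected from the oviduct at embryonic day 2.5 after natural matings of *Prdm10* heterozygotes (*Prdm10*Δ/+). The 6 controls (*Prdm10* WT/HET) were *Prdm10*+/+ or *Prdm10*Δ/+, which were not told apart, and 5 mutants (*Prdm10* KO) were *Prdm10*Δ/Δ, lacking exon 5 on both alleles in every cell. The groups had been assigned by qRT-PCR of exon 5 in the cDNA that was then sequenced. Batch 1 had 16 cycles of PCR pre-amplification and held 3 controls and 2 mutants, and batch 2 had 13 cycles and held 3 controls and 3 mutants.

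At the 8-cell stage the blastomeres of the mouse embryo flatten against each other, a step called compaction. It needs E-cadherin, the product of *Cdh1*, which joins neighbouring cells and is tied to actin through β-catenin (*Ctnnb1*) and α-catenin (*Ctnna1*). Tight junctions are assembled from this stage until the blastocyst, when they seal the trophectoderm so that a fluid-filled cavity can form. JAM-A (*F11r*), occludin (*Ocln*) and the claudins (*Cldn4*, *Cldn6*, *Cldn7*) span the membrane, and ZO-1 (*Tjp1*) is the scaffold beneath them. The comparison asks whether transcripts of this machinery differed in embryos without *Prdm10*, at a stage chosen because mutants still look like their littermates.

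The library totals were 3.53e+06 to 8.27e+06 expected counts and did not differ between groups beyond their spread (5.77e+06 ± 1.55e+06 in controls, SD, n = 6, against 6.70e+06 ± 1.41e+06 in mutants, SD, n = 5; exact permutation test, two-sided, p = 0.314). *Prdm10* was at 11.1 to 24.8 TPM in controls and 4.88 to 8.16 TPM in mutants, with no overlap. Its counts differed less (log2 fold change -0.66 ± 0.26, SE; DESeq2 adjusted p = 0.215), as the effective length given to the gene was 3011 ± 334 bases in controls and 4746 ± 326 in mutants (SD, n = 6 and 5). Of 13 early embryo markers 9 were at 1 TPM or more in controls, led by *Dppa3* at a mean of 5132 TPM. The list summed to 7298 to 8509 TPM in controls and 7145 to 8573 in mutants, mostly *Dppa3*. Within it *Klf17* was lower in mutants (log2 fold change -1.10 ± 0.29, SE; DESeq2 adjusted p = 0.0210, edgeR 0.207), *Pou5f1* and *Tfap2c* were higher and *Nanog* lower at an unadjusted p under 0.05, and the other 5 of the 9 tested were not past it. The 13 blastocyst markers summed to 62.7 to 171 and 88.4 to 177 TPM, of which *Aqp9* had the largest share in controls. Within this list 4 of the 9 genes tested (*Krt18*, *Krt8*, *Krt19* and *Dab2*) were higher in mutants at an unadjusted p under 0.05 and 0 lower (5.74% and 6.2% of all genes tested), though the median of *Krt19* was 0.34 TPM in controls and 0.32 in mutants. DESeq2 called 1, the keratin gene *Krt18*, at 1.14 to 6.36 TPM in controls and 4.44 to 13.0 in mutants (log2 fold change 1.85 ± 0.47, SE; adjusted p = 0.0148, edgeR 0.192). *Krt18* was higher in every mutant than in every control of its batch, as *Cldn4* was below. The marker genes with only an unadjusted p are named after their values were seen. The 9 oocyte markers summed to 32.9 to 120 and 48.5 to 80.8 TPM. Of the markers of other cells, the 8 cumulus genes reached 81.1 TPM in sum, almost all of it *Amhr2* (the rest at most 0.71 in controls and 3.08 in mutants, *Has2* and *Foxl2* at 0). The 6 oviduct genes summed to at most 0.81 TPM in batch 1 and 33.5 in batch 2, mostly *Ovgp1*, with *Krt5* at 0. The 5 blood genes summed to at most 11.1 TPM, with *Hbb-bt* at 0. Control replicate 1 had the highest sums of oocyte and blood markers and the lowest sum of blastocyst markers of all 11 embryos, and the highest oviduct sum of the controls (24.3 TPM). The part of these cells in the results below was not tested.

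All 9 genes were expressed in every embryo. TPM is scaled for gene length and library size, so that levels of different genes can be set side by side. In controls the order ran from *Cldn7* (184 ± 138 TPM, SD, n = 6) through *F11r* (109 ± 50.6), *Cldn4* (89.3 ± 43.2), *Ctnnb1* (66.8 ± 15.9), *Ctnna1* (37.3 ± 9.24), *Cldn6* (35.7 ± 14.9), *Ocln* (25.9 ± 9.83) and *Cdh1* (19.9 ± 6.79) to *Tjp1* (13.1 ± 2.89). Among the 11633 genes with a control mean of 1 TPM or more, *Cldn7* stood at the 92.9th percentile and *Tjp1* at the 55.9th. *Cldn7* was thus among the more abundant transcripts, and that of the scaffold ZO-1 was near the middle. Of the 8 neighbouring pairs in this order, the gap between the means was larger than the larger SD only between *Ctnnb1* and *Ctnna1* (higher in 6 of 6 controls), so the other neighbours were not separated beyond their spread. Within embryos, the upper gene of the other 7 pairs was the higher one in 5 of 6 controls for 5 pairs and in 4 of 6 for 2 pairs. *Ctnnb1* was at 2.36 to 3.63 times the level of *Cdh1* in 5 controls, at 7.58 times in control replicate 1 and at 1.48 to 3.52 times in mutants, and the groups overlapped. *Ctnna1* was at 1.54 to 2.26 times the level of *Cdh1* in controls and 1.59 to 2.00 times in mutants.

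**Figure D1:**
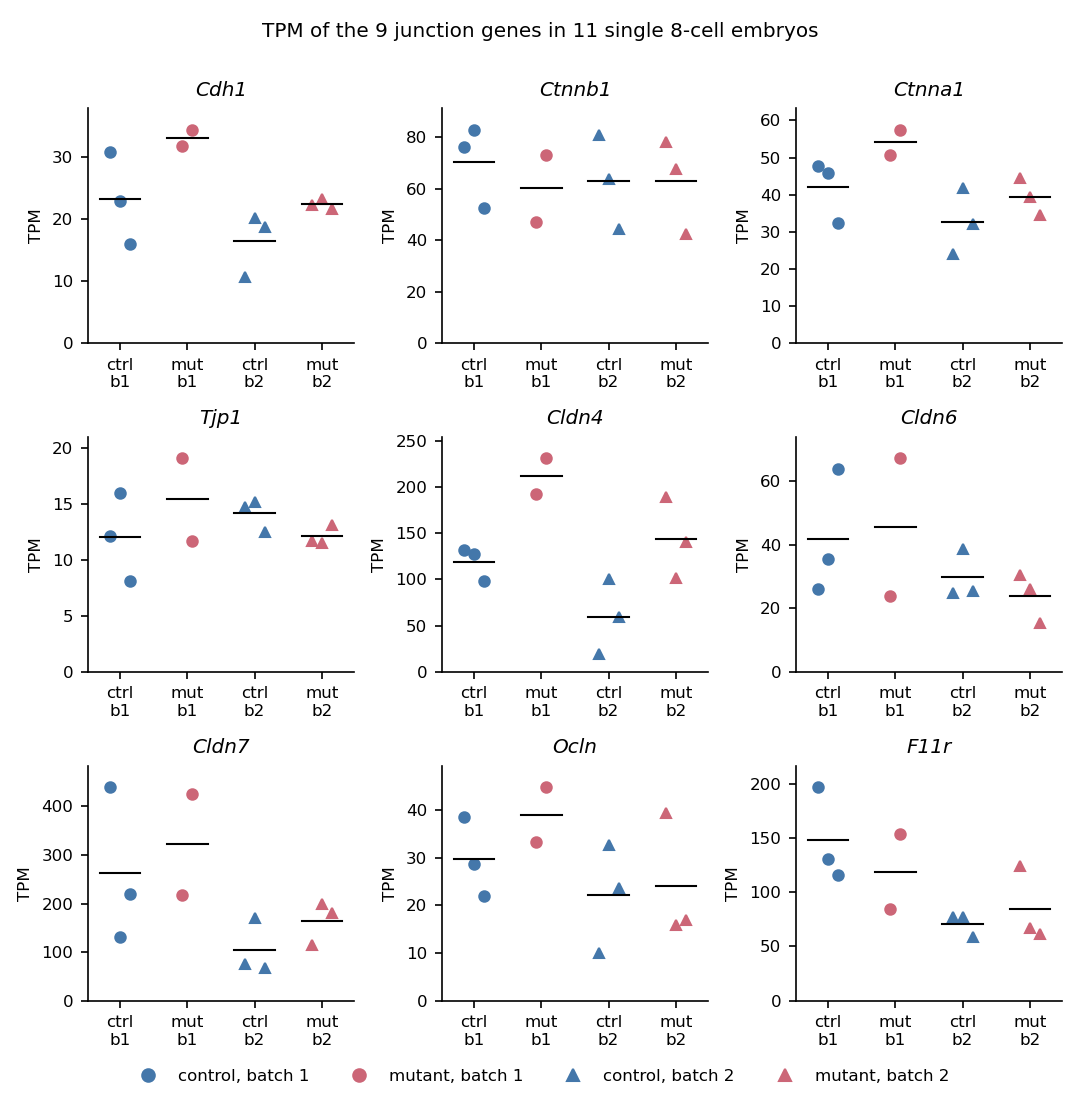
TPM of each junction gene (vertical axes, from 0, each with its own scale) in 6 control (blue) and 5 mutant (red) embryos of batch 1 (circles, b1) and batch 2 (triangles, b2), each point 1 embryo and each line the mean of its group and batch. *Cdh1* and *Cldn4* are higher in every mutant than in every control of the same batch, and the other 7 genes overlap in at least 1 batch.

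Between mutants and controls, 1 of the 9 genes passed the threshold, *Cldn4*, which was higher in mutants. Over all 10448 genes tested, DESeq2 called 151 (1.45%), of which 59 were higher in mutants (0.565%). The estimates of 7 of the 9 genes were above 0 and of 2 (*Ctnnb1* and *Cldn6*) below it, with a median log2 fold change of 0.18 beside -0.0012 for all genes tested, 49.8% of which had an estimate above 0. An unadjusted p under 0.05 was reached by *Cldn4* and *Cdh1*, both higher in mutants, as it was by 5.74% of all genes tested in that direction. These were also the 2 genes whose TPM was higher in every mutant than in every control of its batch, in both batches, which held for 0.995% of all genes tested. edgeR's quasi-likelihood test called none of the 9 genes, with *Cldn4* and *Cdh1* under an unadjusted p of 0.05, and 0.306% of all genes. Each library came from a whole embryo, so that a change in the number of expressing blastomeres and a change in RNA per blastomere cannot be told apart.

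**Figure D2:**
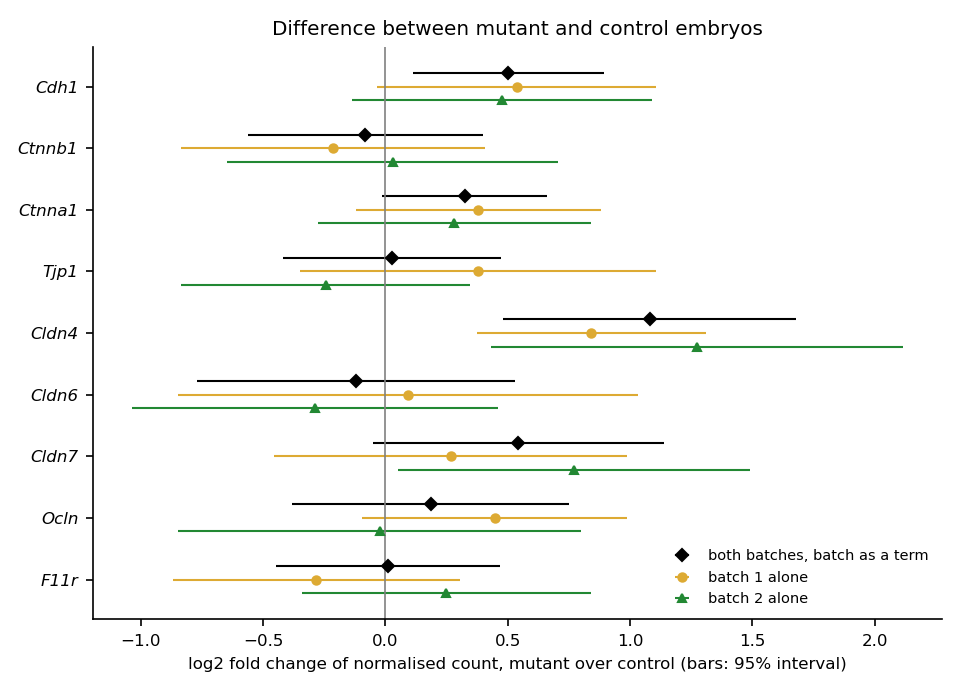
Log2 fold change of the normalised count, mutant over control (horizontal axis), for each junction gene, with 95% intervals that are not adjusted for the number of genes, from DESeq2 on both batches with batch as a term (black diamonds), batch 1 alone (yellow circles) and batch 2 alone (green triangles). The intervals of *Cldn4* lie above 0 in all 3 fits, and those of *Ctnnb1*, *Tjp1*, *Cldn6*, *Ocln* and *F11r* span 0 in all 3.

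Among the adherens junction genes, *Cdh1* (chromosome 8, 106603351 to 106670246, plus strand, GRCm38) was at 30.8, 22.9 and 16.0 TPM in the controls of batch 1 and 31.8 and 34.4 TPM in the mutants. In batch 2 it was at 10.7, 20.1 and 18.8 TPM in controls and 22.3, 23.3 and 21.7 TPM in mutants. The mutants were thus at the top of each batch, by less than 1 TPM over the highest control in batch 1. The count of *Cdh1* was 1.42-fold higher in mutants (95% interval 1.08 to 1.86; log2 fold change 0.50 ± 0.20, SE), short of the threshold (DESeq2 adjusted p = 0.229, edgeR 0.406). Without control replicate 1, which had the lowest value, the log2 fold change was 0.39 (adjusted p = 0.449).

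*Ctnna1* (chromosome 18, 35118859 to 35254779, plus strand), whose product links the cadherin complex to actin, was at 47.6, 45.9 and 32.4 TPM in controls and 50.6 and 57.6 TPM in mutants of batch 1. In batch 2 the controls were at 24.1, 41.8 and 32.1 TPM and the mutants at 44.5, 39.4 and 34.5 TPM, and here the groups overlapped. The estimated fold was 1.25 (95% interval 0.991 to 1.58; log2 fold change 0.32 ± 0.17, SE; DESeq2 adjusted p = 0.463). *Ctnnb1* (chromosome 9, 120929216 to 120960507, plus strand), whose product also acts in Wnt signalling, was at 44.3 to 83.1 TPM in controls (median 70.0) and at 47.0, 73.3, 78.4, 67.7 and 42.6 TPM in mutants, within nearly the same range. Its fold was 0.945 (95% interval 0.677 to 1.32; log2 fold change -0.08 ± 0.24, SE; DESeq2 adjusted p = 0.951), and these embryos did not set the fold more closely than that interval.

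Among the claudins, which set the permeability of the tight junction, *Cldn4* (chromosome 5, 134945119 to 134946934, minus strand) was the gene called. In batch 1 it was at 132, 128 and 97.9 TPM in controls and at 192 and 231 TPM in mutants. In batch 2 it was at 18.8, 101 and 59.2 TPM in controls and at 189, 101 and 140 TPM in mutants. The groups did not overlap within a batch, although mutant replicate 2 (101.17 TPM) was almost level with control replicate 2 (100.90 TPM). They overlapped across batches, where 4 of 5 mutants were above every control. The mean normalised count was 705 ± 303 in controls (SD, n = 6) and 1388 ± 333 in mutants (SD, n = 5), from 196 to 2148 expected counts per library. With batch in the fit, the difference was 2.11-fold (95% interval 1.40 to 3.20; log2 fold change 1.08 ± 0.31, SE; DESeq2 adjusted p = 0.0370, edgeR 0.243). The log2 fold change was 0.84 ± 0.24 in batch 1 alone (adjusted p = 0.0656) and 1.27 ± 0.43 in batch 2 alone (adjusted p = 0.246).

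The direction for *Cldn4* was the same in all 21 other fits, with log2 fold changes from 0.84 to 1.33, but the call was made in 7 of them. With 1 embryo left out, DESeq2 called the gene in 3 of 11 fits (without control replicate 1, control replicate 2 or mutant replicate 2), and the adjusted p ran from 0.00199 to 0.157 over the 11. Control replicate 1 was the lowest of its batch for *Cldn4*, *Cdh1*, *Ctnna1* and *Ocln*, and the embryo named above for its marker sums. Without it the log2 fold change of *Cldn4* was 0.84 and the adjusted p 0.00388.

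**Figure D3:**
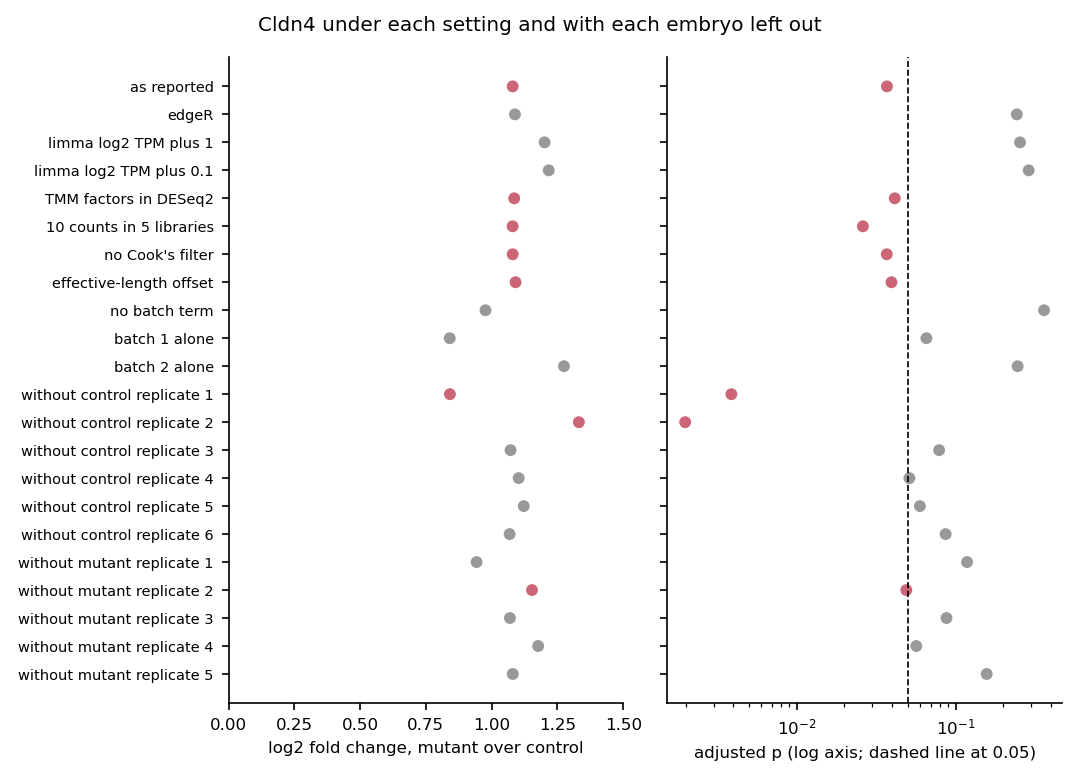
Log2 fold change of *Cldn4*, mutant over control (left, from 0), and its adjusted p (right, log axis, dashed line at 0.05), for the fit reported and 21 others (rows), red where the adjusted p is under 0.05 and grey where it is not. Every fold change lies between 0.84 and 1.33, and the adjusted p lies on either side of the line.

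*Cldn7* (chromosome 11, 69964779 to 69967885, plus strand) had the highest mean TPM of the 3 claudins in both groups. It was at 440, 132 and 219 TPM in controls and 218 and 425 TPM in mutants of batch 1, and at 76.5, 170 and 67.0 TPM in controls and 115, 198 and 181 TPM in mutants of batch 2. The groups overlapped in both batches, and the fold of 1.46 (95% interval 0.965 to 2.20; log2 fold change 0.54 ± 0.30, SE) was not called (DESeq2 adjusted p = 0.499). *Cldn6* (chromosome 17, 23679249 to 23682446, plus strand) was at 24.8 to 63.7 TPM in controls (median 30.8) and at 23.9, 67.2, 30.4, 26.0 and 15.5 TPM in mutants. Its highest control and highest mutant, both of batch 1, stood well above the rest. The fold of *Cldn6* was 0.920 (95% interval 0.587 to 1.44; DESeq2 adjusted p = 0.945). *Cldn4* made up 29.7 ± 10.5% of the summed TPM of these 3 claudins in controls (SD, n = 6) and 41.1 ± 10.4% in mutants (SD, n = 5), with ranges of 15.6% to 43.3% and 31.1% to 56.6% that overlapped.

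The bases directly upstream of these claudin genes are shown because *Cldn4* was called and *Cldn7*, the most abundant, was not. Each run is the 250 bases before the RefSeq start (GRCm38.p6), 5′ to 3′ on the gene's own strand, at chr5:134946935-134947184 (minus strand) for *Cldn4* and chr11:69964529-69964778 (plus strand), the first of a pair of windows, for *Cldn7*. Capitals mark GGGCGG (bound by KLF and SP factors), GGAATG (TEAD), CACCTG (the Snail E-box) and GCCNNNGGC (TFAP2), on either strand.
Cldn4: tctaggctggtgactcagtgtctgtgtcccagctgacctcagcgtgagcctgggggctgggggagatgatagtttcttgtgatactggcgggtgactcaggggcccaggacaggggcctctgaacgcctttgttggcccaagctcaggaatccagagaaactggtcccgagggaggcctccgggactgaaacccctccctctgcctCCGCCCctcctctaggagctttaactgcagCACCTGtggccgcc
Cldn7: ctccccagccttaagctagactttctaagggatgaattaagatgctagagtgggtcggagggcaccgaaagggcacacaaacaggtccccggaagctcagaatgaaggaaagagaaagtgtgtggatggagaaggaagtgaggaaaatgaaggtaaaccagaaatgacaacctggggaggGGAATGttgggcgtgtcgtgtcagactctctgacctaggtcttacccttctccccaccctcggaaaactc
The *Cldn4* run holds CCGCCC, which is GGGCGG read on the other strand, and 1 CACCTG, both within the last 50 bases before the start. This *Cldn7* run holds 1 GGAATG and neither of those, but the second *Cldn7* window, at a start inside the gene, holds CCGCCC and 2 matches of CACCTG. The window of *Cldn6*, which was not called, holds 2 matches of CCGCCC and 1 of CACCTG (as CAGGTG). Windows were at hand for 7 of the 9 genes, which had 10 windows between them, some overlapping. GGGCGG was in 9 of these 10, in at least 1 window of all 7 genes, beside 32.7% of all 32851 windows and 58.4% of the 9790 windows of genes tested here. CACCTG was in 5 of 10 (17.2% of all windows, 15.2% for genes tested), GCCNNNGGC in 3 (13.7% and 20.4%), GGAATG in 1 (12.6% and 10.2%) and the general E-box CANNTG, of which CACCTG is one form, in 5 (66.2% and 56.6%). A match of these letters is not a bound site. None of the 9 genes was on the study's list of genes bound by PRDM10 in mouse embryonic stem cells.

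The other membrane proteins of the tight junction did not pass the threshold. *Ocln* (chromosome 13, 100496507 to 100552718, minus strand) was at 38.5, 28.7 and 21.95 TPM in controls and 33.3 and 44.9 TPM in mutants of batch 1. In batch 2 it was at 10.1, 32.7 and 23.6 TPM in controls and 39.5, 16.0 and 17.0 TPM in mutants, so that 2 of 3 mutants were below 2 of 3 controls. The fold was 1.14 (95% interval 0.767 to 1.68; log2 fold change 0.18 ± 0.29, SE; DESeq2 adjusted p = 0.893). *F11r* (chromosome 1, 171437535 to 171464603, plus strand) was at 197, 131 and 116 TPM in controls and 84.1 and 154 TPM in mutants of batch 1, and at 77.2, 77.5 and 58.6 TPM in controls and 124, 66.8 and 61.6 TPM in mutants of batch 2. Its embryos differed by batch more than by group, and the fold was 1.01 (95% interval 0.734 to 1.38; DESeq2 adjusted p = 0.996).

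*Tjp1* (chromosome 7, 65296165 to 65527781, minus strand) was at 12.1, 16.0 and 8.07 TPM in controls and 19.0 and 11.7 TPM in mutants of batch 1. In batch 2 it was at 14.7, 15.2 and 12.5 TPM in controls and 11.7, 11.5 and 13.1 TPM in mutants. The fold was 1.02 (95% interval 0.748 to 1.39; log2 fold change 0.03 ± 0.23, SE; DESeq2 adjusted p = 0.987).

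More genes were called between the batches than between the groups. Of the 9 genes, *Tjp1* was higher and *Cldn7* lower in batch 2, while 27.9% of all genes tested were called between batches, so 2 of 9 was near the background. *Cldn7* was at 287 ± 138 TPM in batch 1 (SD, n = 5) and 135 ± 56.2 in batch 2 (SD, n = 6), a log2 difference in counts of -0.99 ± 0.30 (SE; DESeq2 adjusted p = 0.00838, edgeR 0.0308). Without control replicate 4, its highest control, this was -0.75 (adjusted p = 0.0537). *F11r* was at 136 ± 42.2 and 77.6 ± 24.0 TPM (log2 difference in counts -0.58 ± 0.23, SE; DESeq2 adjusted p = 0.0521), and passed the threshold in limma on log2(TPM + 1) (adjusted p = 0.0245). The batches were isolated apart and had different cycle numbers, and these cannot be told apart. In a fit with a batch by group interaction, DESeq2 called none of the 9 genes (0.0382% of all genes), none had an unadjusted p under 0.05, and edgeR called none. The interaction estimate for *Cldn4* was 0.44 ± 0.61 (SE, log2).

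The batch difference of *Tjp1* was in counts and not in TPM. Its normalised count was 213 ± 63.2 in batch 1 (SD, n = 5) and 354 ± 65.2 in batch 2 (SD, n = 6), a log2 difference of 0.73 ± 0.23 (SE; DESeq2 adjusted p = 0.00931, edgeR 0.0244). Its TPM was 13.4 ± 4.22 and 13.1 ± 1.55. The effective length, an average over the gene's isoforms weighted by their estimated share, was 3770 ± 669 bases in batch 1 and 5347 ± 691 in batch 2. With this length as an offset in DESeq2 the log2 difference was 0.20 ± 0.22 (adjusted p = 0.575). *Ctnnb1* had the opposite order, with an effective length of 1843 ± 169 bases in batch 1 and 1438 ± 98.9 in batch 2 at 66.4 ± 15.7 and 63.0 ± 16.4 TPM. For *Cldn4*, *Cldn6* and *Ctnna1* the length differed by less than 1 base among all embryos.

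**Figure D4:**
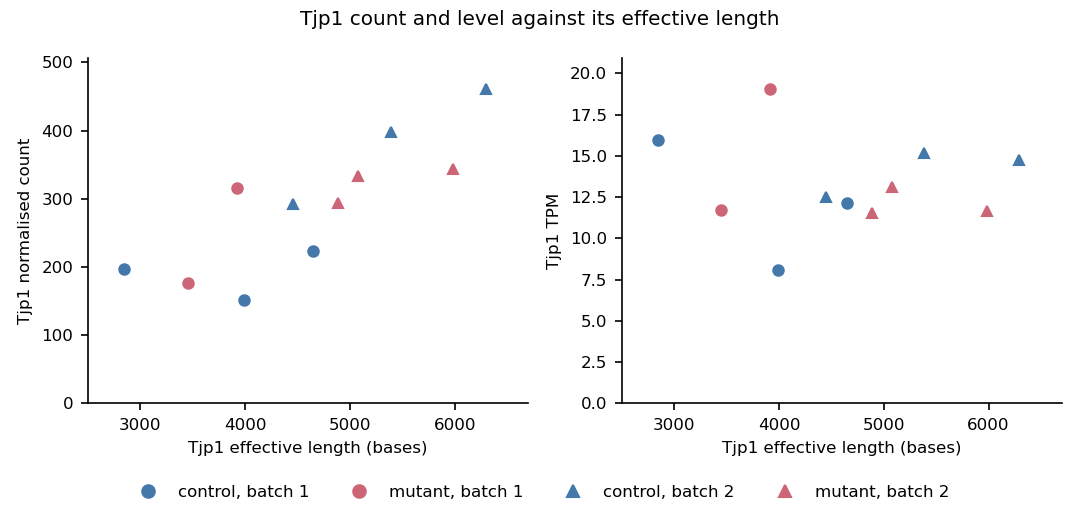
Normalised count of *Tjp1* (left) and its TPM (right), both from 0, against the effective length given to the gene in each embryo (horizontal axes, bases, not from 0), for controls (blue), mutants (red), batch 1 (circles) and batch 2 (triangles). The longest lengths and highest counts are in batch 2, while the TPM of batch 2 (11.5 to 15.2) lies within the range of batch 1 (8.07 to 19.0).

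The genes varied together in part. After each batch mean was subtracted from log2(normalised count + 1), Pearson's r over the 11 embryos was 0.89 for *Cdh1* and *Ctnna1*, 0.87 for *Ctnna1* and *Cldn4*, 0.84 for *Cdh1* and *Cldn4*, and 0.75 for *Ctnna1* and *Ocln*. Over all 11 embryos *Ctnnb1* did not follow its partners (r = -0.20 with *Cdh1* and 0.05 with *Ctnna1*), and varied most closely with *F11r* (0.66). The lowest r of the 36 pairs was -0.55, for *Tjp1* and *Cldn6*. Values of 1 embryo share a library and its depth, and the group difference is part of these r. With the group means also subtracted the first 3 were 0.82, 0.84 and 0.72. The highest r was then that of *Cldn4* and *Ocln* (0.92, from 0.70), and the lowest that of *Tjp1* and *Cldn6* (-0.72). Control replicate 1 carried much of it. Without that embryo, which was left out after the data were seen, the first 3 were 0.78, 0.72 and 0.62, with the group difference kept. *Ctnna1* and *Ocln* had 0.53, *Cldn4* and *Ocln* 0.35, and *Ctnnb1* had 0.59 with *Ctnna1* and 0.21 with *Cdh1*.

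**Figure D5:**
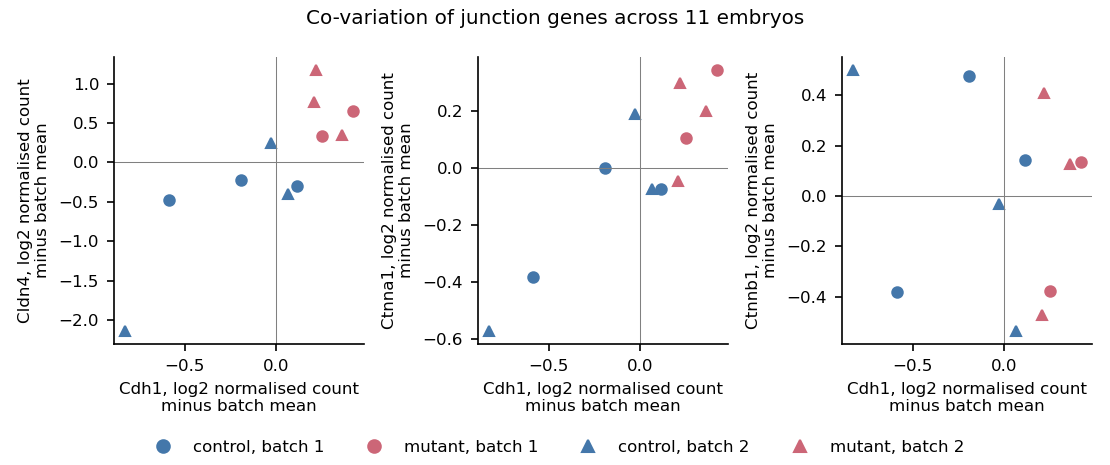
Log2(normalised count + 1) minus its batch mean for *Cldn4*, *Ctnna1* and *Ctnnb1* (vertical axes) against *Cdh1* (horizontal axes), each point 1 embryo, controls in blue, mutants in red, batch 1 as circles and batch 2 as triangles. *Cldn4* (r = 0.84) and *Ctnna1* (0.89) rise with *Cdh1*, with control replicate 1 the lowest point in both. *Ctnnb1* (-0.20) does not over all 11 embryos, and its r is 0.21 without control replicate 1.

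The genes most like *Cldn4* across the 11 embryos, by the same measure over 5536 genes with a baseMean above 100, were *Csrp1* (r = 0.98), *Elp3* (0.98), *Taldo1* (0.98), *Gulo* (0.95) and *Dcaf4* (0.94). *Csrp1* encodes a LIM domain protein of the cytoskeleton, *Elp3* the catalytic subunit of Elongator, *Taldo1* transaldolase of the pentose phosphate pathway and *Gulo* the last enzyme of vitamin C synthesis. This r keeps the difference between mutants and controls, so genes chosen by it tend to share that of *Cldn4*, and their levels are given with no test. *Csrp1* was at a mean of 42.6 TPM in controls and 73.6 in mutants, and *Elp3* at 12.6 and 20.7. *Ctnna1* was 73rd and *Cdh1* 122nd in this order. Most like *Cdh1* were *Epas1* (0.98), which encodes HIF-2α, *Tfap2c* (0.97), which encodes a trophectoderm transcription factor, *Nck2* (0.96), an adaptor of actin signalling, *Atp5d* (0.94), of the mitochondrial ATP synthase, and *Plcd1* (0.93), a phospholipase C. *Epas1* was at a mean of 12.5 TPM in controls and 26.3 in mutants, chosen in the same way and likewise with no test. *Ctnna1* was 35th and *Cldn4* 91st in the order for *Cdh1*.

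Beyond the 9 genes, 103 genes of adherens junctions, tight junctions, desmosomes, gap junctions, cell surface adhesion and epithelial regulation were listed by role. Of these, 102 were in the tables and 46 were tested. DESeq2 called 1 of the 46, *Klf5*, higher in mutants, beside 1.45% of all genes tested in either direction. The median log2 fold change of the 46 was 0.14, 29 estimates were above 0 and 17 below, and an unadjusted p under 0.05 was reached by 5 higher (*Klf5*, *Tfap2c*, *Tead4*, *Perp* and *Pkp2*, with log2 fold changes from 0.38 for *Tfap2c* to 1.55 for *Pkp2*) and 4 lower (*Epcam*, *Snai1*, *Lima1* and *Panx1*, from -0.43 for *Epcam* to -1.55 for *Panx1*), beside 5.74% and 6.2% of all genes tested. *Tfap2c* and the last 5 named, *Pkp2* to *Panx1*, were picked out after their values were seen. Between batches 7 were called higher and 8 lower in batch 2, beside 27.9% of all genes tested.

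*Klf5*, which encodes a transcription factor of the trophectoderm and inner cell mass, was at 80.2 to 123 TPM in controls and 151 to 201 TPM in mutants, with no overlap. The fold was 1.79 (95% interval 1.48 to 2.17; log2 fold change 0.84 ± 0.14, SE; DESeq2 adjusted p = 1.07e-06, edgeR 0.00853). No other regulator on the list was called, with *Tead4*, a trophectoderm factor, at 81.3 ± 37.4 TPM in controls and 101 ± 40.8 in mutants (DESeq2 adjusted p = 0.421).

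None of the 11 tested adherens junction genes was called by DESeq2 or edgeR, with *Lima1* under an unadjusted p of 0.05 in DESeq2. The most abundant in controls were *Ctnnal1*, an α-catenin relative (39.8 ± 9.67 TPM in controls, 47.4 ± 10.4 in mutants; DESeq2 adjusted p = 0.506), and *Jup*, plakoglobin (18.6 ± 14.9 and 16.2 ± 8.24; 0.944). None of the 10 tested tight junction genes was called by either tool, and none had an unadjusted p under 0.05 in DESeq2. They were led by *Ybx3* (75.6 ± 26.5 and 67.5 ± 13.3 TPM; DESeq2 adjusted p = 0.934), a partner of ZO-1, and *Cxadr*, the coxsackie and adenovirus receptor (28.4 ± 7.17 and 19.6 ± 9.36; 0.877). Of the 36, 8 were at 0 in every embryo. The other claudins were low, the highest being *Cldn12* at a control mean of 2.995 TPM, a gene named here after its value was seen. *Cldn5*, also picked out after its values were seen, was at 0.27 to 2.75 TPM in controls and 0 to 0.23 in mutants, and its baseMean of 5.90 was too low for a call.

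Of 8 desmosome genes *Perp* and *Pkp2* were tested, and neither was called by DESeq2 or edgeR, though both had an unadjusted p under 0.05. *Perp*, a desmosomal membrane protein, was at 22.9 ± 10.4 TPM in controls and 41.8 ± 23.5 in mutants (DESeq2 adjusted p = 0.207), and *Pkp3* at 1.29 ± 0.74 and 1.682 ± 1.955 TPM was too low to be tested. Of the gap junction genes, *Gja1*, connexin 43, varied little among controls at 254 ± 6.85 TPM and was at 285 ± 39.1 in mutants (DESeq2 adjusted p = 0.626). On the cell surface, the tetraspanin gene *Cd9* was at 879 ± 263 and 942 ± 213 TPM (DESeq2 adjusted p = 0.928), above all 9 junction genes, and the integrin gene *Itgb5* at 59.9 ± 22.3 and 54.8 ± 9.35 (0.939). *Tjp3*, encoding ZO-3, which was on the study's list of bound genes, was at 0.30 ± 0.28 TPM in controls and 0.39 ± 0.41 in mutants, too low to be tested.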

How the data were processed

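Single 8-cell embryos were sequenced with a Smart-seq2 protocol on single-end reads. The authors mapped reads to GRCm38.p6 with STAR (version 2.6.0c), quantified GENCODE vM18 genes with RSEM and tested groups with DESeq2 (version 1.22.2). The deposited tables hold, per embryo, the RSEM expected count, which may be fractional, the TPM, the FPKM and the effective length. The authors' table of their own comparison (mean count, fold change, test statistic and p-values) was not used. No molecular identifiers were used, so PCR copies were counted as reads, and counting precision does not cover amplification.

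The labels gave each embryo's group and batch, and replicate numbers follow the order of deposit and pair nothing. Of 55 library pairs none agreed within sampling noise. Gene symbols and coordinates came from GENCODE vM21, of the same build, which named 54079 of 54146 rows. Expected counts were rounded and tested with DESeq2 (version 1.42.0, R version 4.3.3; Wald test, batch and group as terms), the tool of the study, with Benjamini-Hochberg adjustment over all genes. A call needed an adjusted p under 0.05 and a baseMean, the average of DESeq2's normalised counts, above 10. The edgeR quasi-likelihood test (version 4.0.16), limma (version 3.58.1) on log2(TPM + 1) or log2(TPM + 0.1), other normalisations and filters, single batches and leaving out each embryo were alternatives. Intervals of 95% are the Wald intervals of single genes.

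The genes and lists were chosen with earlier results of these data known. The text names all 9 genes, list genes that were called, the 5 genes most like *Cldn4* and *Cdh1*, and *Prdm10*. It also names up to 2 of the most abundant genes of each wider list of junction, adhesion and regulator genes. Of the marker lists it gives sums and only some genes. Other list genes, such as those with an unadjusted p under 0.05, were named after their values were seen, and *Tjp3* for its place among the study's bound genes. Some list genes are not reported here. Promoter windows came from RefSeq (GRCm38.p6).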

Additional observations from a re-analysis of the deposited data

How the results depend on the processing

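With *Cldn4* the 1 gene called of the 9, the count was 0 in edgeR, in limma on log2(TPM + 1) and log2(TPM + 0.1), without a batch term (*Cldn4* log2 fold change 0.98, adjusted p = 0.361), in batch 1 alone and in batch 2 alone, and 0 to 1 with 1 embryo left out. It stayed at 1 with TMM factors, an effective-length offset, no Cook's filter (with the same estimate), or at least 10 counts in 5 libraries. With no baseMean filter or a baseMean above 100 the fit was the same. The count could not change there, as *Cldn4* had a baseMean of 1015 and the lowest of the 9 genes, *Cldn6*, had 229. The count of 1 in the wider lists (*Klf5*) was 0 in batch 2 alone and 1 to 2 with 1 embryo left out, the 2 being reached without control replicate 2 (*Perp* added) and without control replicate 3 (*Panx1* added). Between batches 2 genes were called, 1 with the effective-length offset, 3 with TMM factors or with at least 10 counts in 5 libraries (*F11r* added), and 1 to 3 with 1 embryo left out. In limma they were *Cldn7* and *F11r*, with *Cldn4* added on log2(TPM + 1), and not *Tjp1*. The interaction gave 0 throughout. The median log2 fold change of the 9 genes ran from 0.05 (without mutant replicate 1) to 0.38 (batch 1 alone). The estimates of *Ctnnb1*, *Tjp1*, *Cldn6*, *Ocln* and *F11r*, which were not called, changed sign in 5, 4, 4, 1 and 8 of 21 other fits, and those of *Cdh1*, *Ctnna1* and *Cldn7* in 0 of 21. The cause of these changes was not tested. The order of control levels was the same with FPKM, which differs from TPM by 1 factor per embryo and so could hardly change it. *Ctnna1* and *Cldn6* changed places without control replicate 4 or 5. No paired analysis was possible because the replicate numbers follow the order of deposit and no label pairs the embryos. With 2 or 3 embryos per group and batch, the intervals above show how closely each fold was estimated. They do not give the smallest difference that could be called.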
